A study of Mus musculus with 28 samples.

Results

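T helper 17 (Th17) cells that had spent 15 days or 5 days in a mouse were restimulated for 2 h, and the 2 restimulated groups were compared on 4 arrays of day 15 and 3 arrays of day 5, which are 7 of the 28 arrays in the series. The 7 arrays were chosen by their labels alone. The question was which genes that a T cell switches on after stimulation were still induced at day 15, which were induced at day 15 and not at day 5, and which were no longer induced. All cells were TRP1 CD4+ T cells of the strain BwTRP1 Rag1-/-, which carry a receptor for a melanocyte protein and lack the Rag1 recombinase. They were first cultured with TRP1 peptide on irradiated splenocytes, with IL-1, IL-6, IL-21 and TGFβ2 as Th17 cytokines, antibodies to IL-2, IL-4 and IFN-γ, and later IL-2 and IL-23. The Thy1.2+ cells then went into Thy1.1+ B6.PL hosts that had received a sublethal dose of radiation. CD4 enrichment and a sort on Thy1.2 recovered them from spleen and inguinal lymph nodes, and a part of each sample was restimulated with antibodies to CD3 and CD28 while the rest stayed unstimulated. The unstimulated parts, 4 at day 15 and 3 at day 5, served as the baseline of each day. No label ties a replicate to a mouse of its own, and a p-value therefore measures only the spread between these samples, which may be technical.

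Th17 cells are CD4+ T cells that make IL-17A, IL-17F and related cytokines and guard mucosal surfaces. When their receptor is engaged, calcium, kinase and NF-κB signals first switch on early transcription factors, many of which need no new protein, and then cytokines and chemokines. Feedback inhibitors induced in the same window end the signal. Th17 cells are known to be less fixed than other helper types and can take up IFN-γ production after transfer.

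Values are log2 RMA levels, so a difference of 1 is a 2-fold change, and 19938 genes were measured. A gene was called at a limma adjusted p under 0.05 over all of these, and it was counted as induced where it was also at least 2-fold higher in restimulated than in unstimulated cells of the same day. Whether the change on restimulation differed between the days was tested as an interaction, the change at day 15 minus the change at day 5. The files used here carry no detection calls, and the median of the 7 arrays ran from 6.97 to 7.07, so lower levels are not shown to be above background and folds against them compare array values. In pooled cells, fewer cells that respond and less RNA in each of them cannot be told apart.

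Among the restimulated day 15 samples, sample 1 stood apart. Over the 145 genes induced at day 5, its median level was 0.11 above the day 5 mean, while samples 2, 3 and 4 lay at -0.72, -0.90 and -0.98. The mean of 22 cytokine genes was 9.30 in day 15 sample 1 and 7.92, 8.32 and 8.14 in the other day 15 samples, against 9.26, 9.05 and 9.40 in the day 5 samples. For many of the genes named below, values without this sample are also given. There, differences between restimulated groups leave out its restimulated array. Inductions, interactions and classes leave out both arrays numbered 1 at day 15, although the values showed no pairing by number at that day. A fit without the restimulated array alone was added after seeing the data, and it gave 39 lost genes, against 34 without both arrays and 15 with all samples. Markers of the T cells themselves, such as Cd3e, Cd4 and Thy1, were high on all 7 arrays, with list means of 12.33 to 12.43 at day 15 and 12.29 to 12.48 at day 5.

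Restimulated cells of day 15 differed from those of day 5 in 2685 genes, 13.5% of those measured, of which 1006 (5.05%) were higher and 1679 (8.42%) lower. At least 2-fold changes were found for 115 higher genes (0.577%) and 98 lower genes (0.492%). With arrays rescaled by quantile normalisation the split turned to 1591 higher and 1393 lower, so directions are read gene by gene. Over all genes the median difference was -0.05.

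Of the inducible genes, 208 (1.04% of all genes) were induced at day 15 and 145 (0.727%) at day 5. They shared 72 genes, which is 34.6% of the day 15 list and 49.7% of the day 5 list. These 72 are called kept. The interaction passed the test for 234 genes (1.17%), of which 88 (0.441%) had the larger change at day 15 and 146 (0.732%) the larger change at day 5. Among genes induced at day 5 and not at day 15, 15 passed it (0.0752% of all genes) and are called lost, and among genes induced at day 15 and not at day 5, 48 passed it (0.241%) and are called gained. The remaining 88 genes induced at day 15 alone (0.441%) and 58 induced at day 5 alone (0.291%) did not pass the interaction test and are called undecided. When each sample was left out in turn, 40 of the 72 kept genes, 6 of the 15 lost genes and 8 of the 48 gained genes held their class in all 7 fits.

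**Figure D1:**
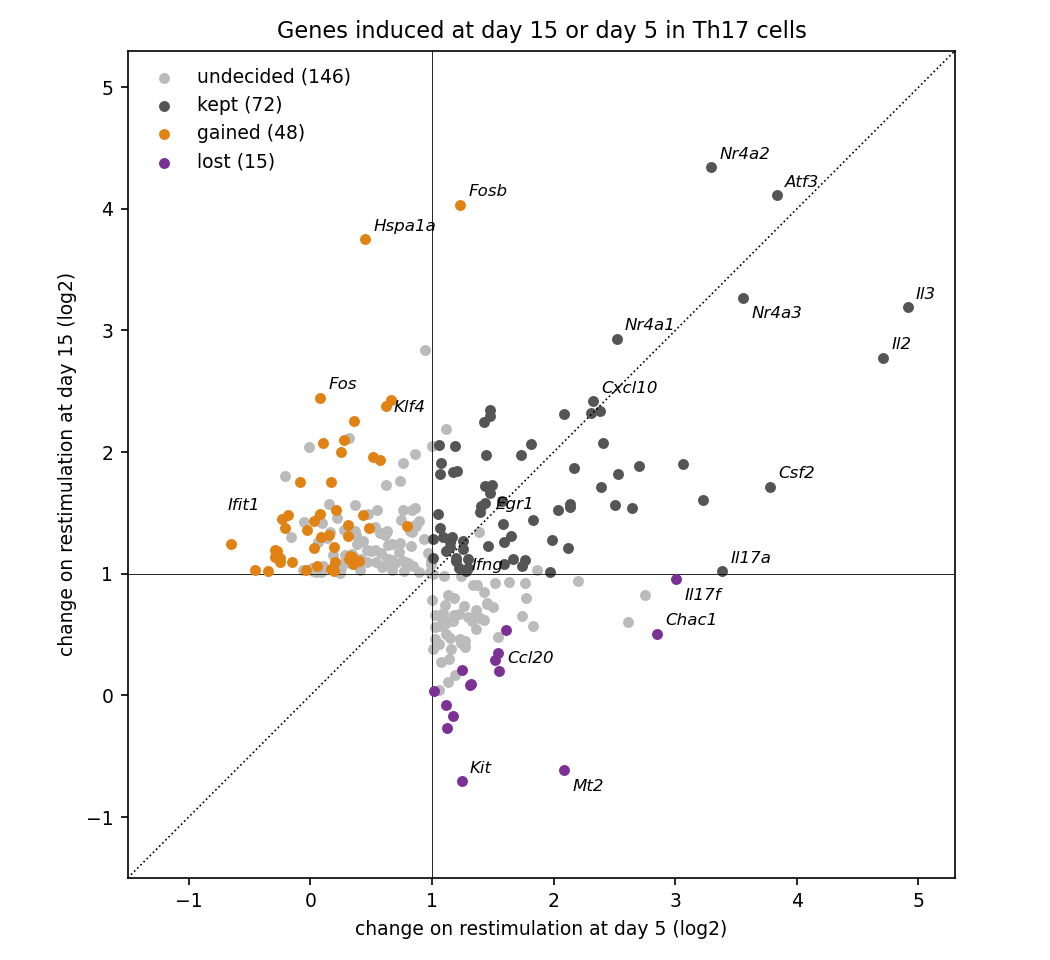
Change on restimulation at day 15 (vertical axis, log2) against the change at day 5 (horizontal axis, log2) for the 281 genes induced at either day. Each point is 1 gene, coloured by class; thin lines mark 2-fold induction and the dotted line equal change. Il17a, Il17f, Chac1 and Mt2 lie below the dotted line, and Fosb, Hspa1a, Fos and Klf4 above it.

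The cytokines that name the Th17 cell were lower after restimulation at day 15 and were induced less than at day 5. Il17a (probe set 10345032), the gene of IL-17A, stood at 8.93, 6.85, 7.32 and 7.02 in restimulated day 15 samples, against 10.31, 10.21 and 10.30 in restimulated day 5 samples. All 4 day 15 samples lay below all 3 of day 5, and sample 1 was nearest to them. The level was 6.67-fold lower at day 15 (log2 difference -2.74 ± 0.28 SE, adjusted p = 1.13e-06). Restimulation raised Il17a by 1.02 at day 15 and by 3.39 at day 5, and this change differed by -2.36 (adjusted p = 0.00246), so it was the 1 kept gene (0.00502% of all genes) whose induction passed as smaller at day 15. Without day 15 sample 1 its induction at day 15 was 0.53, or 0.56 without the restimulated array alone, and in both fits it fell into the lost class.

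Il17f (probe set 10353415), which encodes the close relative IL-17F, stood at 8.06, 7.19, 7.62 and 7.40 in restimulated day 15 samples, against 9.66, 9.99 and 10.18 in those of day 5. The groups did not overlap, and the level was 5.18-fold lower at day 15 (adjusted p = 1.50e-09). Its induction was 0.96 at day 15, which passed the test but lay just under 2-fold, against 3.00 at day 5, a difference of -2.05 (adjusted p = 5.76e-05). Il17f is therefore counted as lost and Il17a as kept only because they fall on either side of the 2-fold line.

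Ccl20 (probe set 10347888), the chemokine through which Th17 cells draw in cells bearing CCR6, was lost as an inducible gene. It stood at 6.88, 6.55, 6.50 and 6.78 in restimulated day 15 samples, against 7.82, 7.63 and 8.53 in restimulated day 5 samples. Its change on restimulation was 0.20 at day 15 (adjusted p = 0.339), against 1.55 at day 5, and the interaction of -1.35 passed (adjusted p = 0.000928) and held its class whichever sample was left out. Iltifb, a near copy of the IL-22 gene, was also lost, with 4.25 to 4.36 at day 15 and 5.02 to 6.56 at day 5. Its probes may read Il22 itself, and its interaction (-1.23, adjusted p = 0.0399) missed the threshold when any of 4 samples was left out (adjusted p = 0.0698 without day 15 sample 1 and 0.161 without day 5 sample 1).

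Il21, a cytokine that Th17 cells use to sustain one another, stood at 10.48, 7.19, 8.52 and 7.95 in restimulated day 15 samples, against 10.74, 11.02 and 11.60 in those of day 5. Sample 1 of day 15 came close to the day 5 samples, and the other 3 lay more than 2 log2 units below them. The level was 5.99-fold lower at day 15 (adjusted p = 0.00173), and without sample 1 the log2 difference was -3.23 (adjusted p = 1.39e-05). It was already lower without restimulation, at 7.51 ± 0.40 (SD, n = 4) at day 15 and 9.26 ± 0.61 (SD, n = 3) at day 5 (adjusted p = 0.0338), and its interaction of -0.83 did not pass (adjusted p = 0.580).

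Of 10 genes of the Th17 program 7 passed the test between restimulated groups, all lower at day 15, where 8.42% of all genes were lower. The median of the list was -1.10 against -0.05 over all genes. Besides Il17a, Il17f, Il21 and Ccl20 the 7 were Il23r (-1.17), the receptor chain for the cytokine that maintains Th17 cells, Ccr6 (-1.04), and Batf (-0.72), a transcription factor they need. The changes of Il23r and Ccr6 on restimulation did not pass at either day, at 0.08 and -0.23 at day 15 and -0.02 and -0.17 at day 5. Both were lower at day 15 without restimulation too, with differences of -1.27 and -0.98. The transcription factor genes Maf (0.10) and Rora (-0.22) did not pass the test between the restimulated groups.

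**Figure D2:**
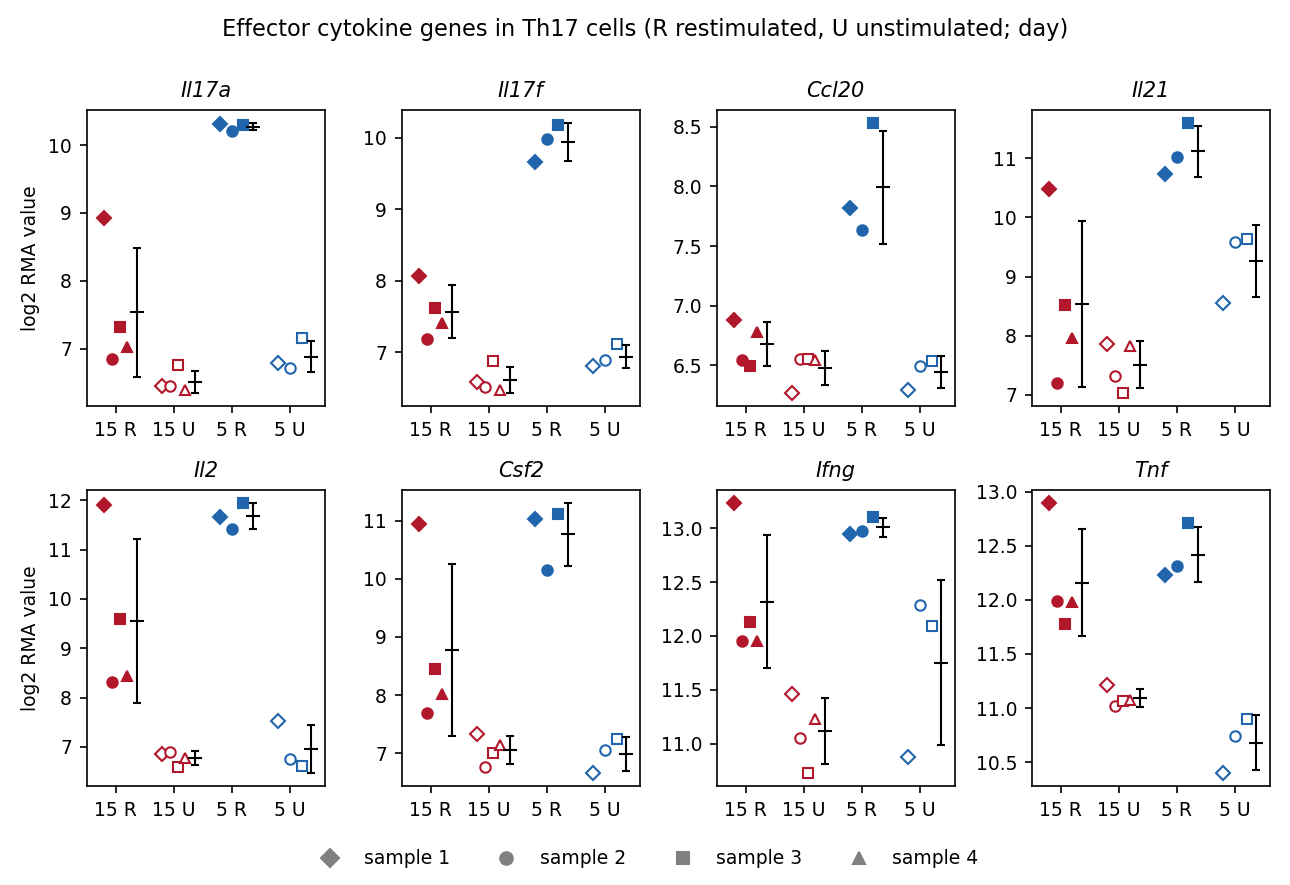
Log2 RMA level of 8 cytokine and chemokine genes in each sample, restimulated (R, filled) and unstimulated (U, open), at day 15 (red) and day 5 (blue); bars give the mean and SD of each group. Il17a, Il17f and Ccl20 are lower in all 4 restimulated day 15 samples, while for Il2, Csf2 and Ifng sample 1 of day 15 (diamond) lies with the day 5 samples.

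Il2 and Il3, cytokines that are not specific to the Th17 type, were induced at day 15 with and without sample 1. The class of Csf2 and Tnf depended on that sample. Ifng stayed kept without both arrays of sample 1 and became undecided without its restimulated array alone. Il2, the gene of the T cell growth factor IL-2, stood at 11.89, 8.32, 9.59 and 8.43 in restimulated day 15 samples, against 11.66, 11.41 and 11.94 in those of day 5. Sample 1 reached the day 5 level and the other 3 did not, so the groups overlapped. Induction was 2.78 at day 15 (adjusted p = 0.000279) and 4.71 at day 5 (adjusted p = 1.12e-05), and the difference in level of -2.11 passed (adjusted p = 0.00847). The interaction of -1.93 did not (adjusted p = 0.218), and without sample 1 it was -2.68 (adjusted p = 0.00400), or -2.71 without the restimulated array alone (adjusted p = 0.00178).

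Csf2, which encodes GM-CSF, the cytokine of pathogenic Th17 cells, stood at 10.94, 7.70, 8.45 and 8.01 in restimulated day 15 samples, against 11.03, 10.14 and 11.12 in those of day 5. It again showed 1 high and 3 low samples at day 15. The difference of -1.99 passed (adjusted p = 0.0163), but not without day 15 sample 2 or 4 or day 5 sample 1 or 3 (adjusted p = 0.0522 to 0.0826). Induction was 1.72 at day 15 (adjusted p = 0.0203) and 3.78 at day 5 (adjusted p = 0.000265), with an interaction of -2.07 that did not pass (adjusted p = 0.206). Without sample 1 the difference was -2.71 (adjusted p = 9.14e-05), induction at day 15 was 1.09 and did not pass (adjusted p = 0.0896), and Csf2 fell into the lost class (interaction -2.69, adjusted p = 0.0190), as it did without the restimulated array alone (-2.79, adjusted p = 0.0107). Il3, a growth factor of myeloid cells that neighbours Csf2, varied most, with 11.42, 6.12, 8.21 and 6.67 at day 15 and 10.33, 8.98 and 10.86 at day 5. It was induced by 3.19 at day 15 and by 4.91 at day 5, and the difference in level of -1.95 did not pass (adjusted p = 0.0979), while without sample 1 it was -3.06 (adjusted p = 0.000252). The Il3 interaction did not pass with all samples or without both arrays of sample 1 (-2.75, adjusted p = 0.0557). Without the restimulated array alone it passed at -2.82 (adjusted p = 0.0372), and Il3 was then kept but less induced at day 15.

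Ifng, the gene of the Th1 cytokine IFN-γ, was high in both restimulated groups, with 13.23, 11.96, 12.13 and 11.95 at day 15 and 12.94, 12.98 and 13.10 at day 5. Induction was 1.20 at day 15 and 1.26 at day 5, starting from unstimulated levels of 11.12 ± 0.31 (SD, n = 4) at day 15 and 11.75 ± 0.76 (SD, n = 3) at day 5. The interaction was -0.06 ± 0.40 SE (adjusted p = 0.961), and the level differed by -0.69 (adjusted p = 0.116), or by -0.995 without sample 1 (adjusted p = 0.00843). Without both arrays of sample 1 its induction at day 15 was 1.01 (adjusted p = 0.00975), and Ifng stayed kept. Without the restimulated array of sample 1 alone it was 0.90, under 2-fold, and Ifng became undecided. Tnf, encoding the inflammatory cytokine TNF, was induced by 1.07 at day 15 and by 1.74 at day 5, at levels of 12.16 ± 0.50 (SD, n = 4) and 12.42 ± 0.26 (SD, n = 3; adjusted p = 0.594). Without sample 1 its induction at day 15 was 0.86, under 2-fold, and its interaction did not pass (adjusted p = 0.187), so it became undecided.

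Of the 22 cytokine genes measured, 6 passed the test between restimulated groups, all lower at day 15: Il17a, Il17f, Il21, Il2, Csf2 and Il10. The median was -0.36, and 8.42% of all genes were lower. Without sample 1 the number was 10 with a median of -0.59, and among the 4 added were Ifng, Il3 and Il13. Il10, the gene of an anti-inflammatory cytokine, rested on day 5 sample 1, at 8.43 against 6.76 and 7.05 in its group, and without that sample its difference of -1.01 did not pass (adjusted p = 0.135).

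Ccl3 and Ccl4, inflammatory chemokines, followed the same sample order. Ccl3 stood at 12.41, 8.77, 9.90 and 9.22 in restimulated day 15 samples, against 13.09, 12.74 and 13.16 in those of day 5. All day 15 samples lay below those of day 5, with a 7.59-fold lower level (adjusted p = 0.000301), or a log2 difference of -3.70 without sample 1 (adjusted p = 6.99e-10). Part of this was present before restimulation, where the difference at day 15 was -1.83 (adjusted p = 0.0172). Ccl4 was 5.19-fold lower (adjusted p = 0.00153) with no such difference detected in unstimulated cells (-0.37, adjusted p = 0.647). The interactions of Ccl3 (-1.10, adjusted p = 0.425) and Ccl4 (-2.01, adjusted p = 0.152) did not pass, but did without sample 1, at -1.86 (adjusted p = 0.00601) for Ccl3 and -2.68 (adjusted p = 0.0108) for Ccl4, and without it both fell into the lost class. Without the restimulated array alone they were -1.88 (adjusted p = 0.00303) for Ccl3 and -2.59 (adjusted p = 0.00974) for Ccl4. Of 13 chemokine genes 5 were lower at day 15 and 1 higher, where 8.42% of all genes were lower and 5.05% higher. The higher one was Ccl5 (0.52), a chemokine stored by memory T cells whose change on restimulation did not pass at either day. Cxcl10, an interferon-responsive chemokine, was induced by 2.42 at day 15 and by 2.33 at day 5.

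Promoter windows are shown for the 4 panel genes with the largest difference between the restimulated groups, as the stretches that carry the start sites of these transcripts. They are RefSeq sequences of build GRCm38.p6, from 250 bases before to 50 after the start, 5′ to 3′ on the gene's strand. Capitals mark matches on either strand to an NFAT core (TGGAAA), AP-1 (TGANTCA), CRE (TGACGTCA) or κB motif, and no matches overlapped.
Dapl1, chr2:59484403-59484702, plus strand: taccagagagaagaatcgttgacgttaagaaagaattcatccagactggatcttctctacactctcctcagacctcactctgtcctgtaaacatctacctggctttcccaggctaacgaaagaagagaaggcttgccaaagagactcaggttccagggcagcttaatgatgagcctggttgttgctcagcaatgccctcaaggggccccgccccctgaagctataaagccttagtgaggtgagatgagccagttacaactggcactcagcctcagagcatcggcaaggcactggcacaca
Ccl3, chr11:83649329-83649628, minus strand: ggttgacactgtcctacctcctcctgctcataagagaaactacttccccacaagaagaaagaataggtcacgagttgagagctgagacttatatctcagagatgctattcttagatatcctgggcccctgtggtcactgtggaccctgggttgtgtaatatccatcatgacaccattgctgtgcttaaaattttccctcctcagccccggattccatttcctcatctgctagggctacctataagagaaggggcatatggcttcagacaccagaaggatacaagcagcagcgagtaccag
Il17a, chr1:20730655-20730954, plus strand: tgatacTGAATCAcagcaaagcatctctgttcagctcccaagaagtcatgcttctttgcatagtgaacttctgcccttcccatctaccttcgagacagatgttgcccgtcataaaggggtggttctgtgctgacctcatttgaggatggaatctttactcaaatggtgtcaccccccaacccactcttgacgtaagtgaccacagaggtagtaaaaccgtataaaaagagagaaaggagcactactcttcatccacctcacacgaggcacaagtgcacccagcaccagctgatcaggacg
Il21, chr3:37232587-37232886, minus strand: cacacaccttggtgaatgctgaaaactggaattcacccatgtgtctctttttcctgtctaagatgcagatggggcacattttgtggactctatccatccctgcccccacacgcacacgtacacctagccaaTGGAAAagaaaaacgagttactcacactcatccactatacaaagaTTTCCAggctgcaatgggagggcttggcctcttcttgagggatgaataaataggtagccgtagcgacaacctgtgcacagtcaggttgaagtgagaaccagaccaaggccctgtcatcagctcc
The Il17a window held 1 AP-1 match and the Il21 window 2 NFAT core matches, while none of the 4 motifs was found in the Dapl1 and Ccl3 windows. Of 32851 RefSeq windows of this length, 21.4% held an NFAT core, 7.81% an AP-1, 1.79% a CRE and 20.7% a κB match, so these matches are common and describe the letters only.

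Several early transcription factors were kept. Nr4a1, an orphan nuclear receptor that reports on T cell receptor signalling, stood at 13.31, 12.96, 12.74 and 12.75 in restimulated day 15 samples, against 13.03, 13.07 and 13.15 in those of day 5. The groups overlapped and the difference was -0.14 ± 0.15 SE (adjusted p = 0.599). Induction was 2.93 at day 15 and 2.52 at day 5. Egr1, a zinc finger factor switched on by kinase signals, stood at 11.97, 11.83, 11.69 and 11.71 at day 15 and 11.55, 11.73 and 11.92 at day 5, with inductions of 1.58 at day 15 and 1.44 at day 5. Its interaction was 0.14 ± 0.15 SE (adjusted p = 0.656).

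The 10 kept genes with the largest smaller induction of the 2 days include Atf3, a stress-responsive factor (4.11 at day 15 and 3.83 at day 5), Nr4a2 (4.34 and 3.29) and Nr4a3 (3.27 and 3.56), the relatives of Nr4a1, Tgif1 (2.34 and 2.38), a repressor in TGF-β signalling, Fosl2 (2.32 and 2.31), an AP-1 subunit, and Kdm6b (2.31 and 2.08), a histone H3 lysine demethylase. Each pair gives the log2 change on restimulation at day 15 and at day 5, and both passed the test for all 6. For these 6 genes neither the interaction nor the difference between restimulated levels passed, although the Nr4a2 and Nr4a3 differences of -0.42 and -0.51 became -0.69 and -0.83 without sample 1 and passed (adjusted p = 0.0445 and 0.0178). Of 24 early transcription factor genes, 19 rose on restimulation at day 15 (with a median change of 1.58 over the list) and 13 at day 5 (median 0.93), where 6.49% of all genes rose at day 15 and 3.99% at day 5.

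Of the 68 kept genes whose interaction did not pass, 3 were higher and 10 lower in restimulated cells at day 15 than at day 5. Over all genes 5.05% were higher and 8.42% lower, so the count of higher genes is near the share of all genes. The 10 lower kept genes included, besides cytokines and chemokines, Rgs16, which limits signalling by chemokine receptors, Dusp4, a phosphatase of MAP kinases, and Egr2, a factor tied to T cell anergy. Dusp4 stood at 10.30, 9.41, 8.85 and 8.79 in restimulated day 15 samples, against 11.13, 10.98 and 11.41 in those of day 5 (log2 difference -1.84, adjusted p = 5.75e-05, or -2.16 without sample 1). Its induction was 2.07 at day 15 and 2.41 at day 5, with an interaction of -0.34 that did not pass (adjusted p = 0.661). Its unstimulated level was also lower at day 15 (adjusted p = 0.000504). The difference for Egr2 (-0.93, adjusted p = 0.0308) did not pass without any one of 5 samples (day 15 samples 2, 3 and 4 and day 5 samples 1 and 3, adjusted p from 0.0690 to 0.141).

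Of 16 genes for NF-κB subunits and inhibitors 13 rose on restimulation at day 15 and 13 at day 5, with median changes of 0.73 and 0.61. Over all genes 6.49% rose at day 15 and 3.99% at day 5. Tnfaip3, the gene of the ubiquitin-editing inhibitor A20, was induced more at day 15 (2.05) than at day 5 (1.19; interaction 0.86, adjusted p = 0.0320). The other of the 3 kept genes (0.0150% of all genes) with a larger change at day 15 were Sik1, a kinase that restrains CREB-dependent transcription (2.06 at day 15 and 1.05 at day 5), and Ifrd1, a transcriptional co-regulator (1.91 and 1.07). For Tnfaip3 and Ifrd1 the difference between restimulated levels did not pass (adjusted p = 0.260 and 0.155), while unstimulated levels were lower at day 15, with differences of -0.60 and -0.57. All 3 interactions missed the threshold without day 15 sample 2 (adjusted p = 0.116 for Tnfaip3, 0.129 for Sik1 and 0.0621 for Ifrd1), and each also without 2 or 3 of the day 5 samples.

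The lost genes outside the cytokines and chemokines included genes of amino acid supply and of metal binding. Chac1 (probe set 10474972), an enzyme that breaks down glutathione and a target of the stress factor ATF4, stood at 8.99, 7.92, 7.99 and 8.10 in restimulated day 15 samples, against 10.85, 10.56 and 10.75 in those of day 5. The groups lay more than 1.5 log2 units apart. The gene was induced by 2.85 at day 5 (adjusted p = 9.50e-08) and changed by 0.51 at day 15 (adjusted p = 0.108), and the interaction of -2.34 passed (adjusted p = 0.000496). It held its class in all 7 fits that left out a sample.

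The other ATF4 targets among the lost genes were Trib3, a pseudokinase (0.21 at day 15 and 1.24 at day 5), Asns, asparagine synthetase (-0.27 and 1.13), and Slc1a4, a carrier of small neutral amino acids (0.35 and 1.54). Trib3 held the lost class in 6 and Slc1a4 in 3 of the 7 fits that left out a sample. For Asns the interaction of -1.40 (adjusted p = 0.0339) passed without day 15 sample 1 and missed the threshold without any one of the other 6 samples (adjusted p = 0.0566 to 0.198). Of 18 genes of amino acid supply and ATF4 targets, 13 passed the test between restimulated groups, all lower at day 15, with a median of -0.80. The share of all genes lower was 8.42%. Sesn2, a stress-induced brake on mTORC1, was -1.23 (-1.52 without sample 1, where it fell into the lost class), the serine pathway genes Psat1, Shmt2 and Phgdh were -1.03, -0.97 and -0.86, and Slc7a5, the leucine carrier, was -0.75. The message of Atf4 itself (-0.10) and of its partner Ddit3 (0.20) did not pass.

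Mt2 and Mt1, metallothioneins that bind zinc and copper, were lost as inducible genes. Mt2 held this class in all 7 fits that left out a sample and Mt1 in 5. Mt2 stood at 10.83, 9.74, 9.93 and 9.91 in restimulated day 15 samples, against 11.41, 11.50 and 12.11 in those of day 5. Restimulation changed it by -0.61 at day 15 (adjusted p = 0.0748) and by 2.09 at day 5, and the unstimulated level was higher at day 15 by 1.13 (adjusted p = 0.00563). Kit, the receptor for stem cell factor, showed the same crossing. It stood at 7.32, 7.00, 6.96 and 7.16 in restimulated day 15 samples, against 8.04, 7.85 and 8.60 in those of day 5, and fell by 0.71 on restimulation at day 15 (adjusted p = 0.000366) while it rose by 1.24 at day 5, and its unstimulated level was higher at day 15 by 0.90. Kit is also a gene of blood progenitors, and the erythroid markers described below moved the same way in unstimulated cells. Their part in the Kit result was not tested.

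The gained genes included the early transcription factors Fosb, Fos and Klf4 and the stress-response genes Ppp1r15a and Hspa1a. Of the 48, 30 were higher in restimulated cells at day 15, with a median difference of 0.63, and 31 were lower in unstimulated cells, with a median of -0.58, where 5.28% of all genes were lower. Both counts describe the class only, because it was chosen on the interaction, which contains both differences. Fosb, an AP-1 subunit, stood at 12.53, 12.81, 12.16 and 12.39 in restimulated day 15 samples, against 10.39, 11.34 and 11.36 in those of day 5. Its unstimulated level was 8.43 ± 1.10 (SD, n = 4) at day 15 and 9.80 ± 0.23 (SD, n = 3) at day 5, and induction was 4.04 at day 15 and 1.23 at day 5 (adjusted p = 0.149 at day 5). The interactions of Fosb (2.81, adjusted p = 0.0382) and Fos (2.37, adjusted p = 0.0438) passed with all samples and without day 15 sample 1, and missed the threshold without any of the other 6 (adjusted p from 0.0613 to 0.197 for Fosb and from 0.0653 to 0.221 for Fos). The difference between the restimulated levels of Fosb (1.44, adjusted p = 0.0458) passed with all samples and missed the threshold in each of the 7 fits that left out a sample (adjusted p = 0.0604 to 0.200). That of Fos did not pass in any of these 7 fits (adjusted p = 0.102 to 0.337).

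Klf4, a factor that restrains T cell proliferation, was gained more firmly. It stood at 9.67, 10.47, 9.20 and 9.63 in restimulated day 15 samples, against 7.74, 8.32 and 8.59 in those of day 5, with no overlap. Its unstimulated levels of 7.36 ± 0.27 (SD, n = 4) at day 15 and 7.59 ± 0.10 (SD, n = 3) at day 5 did not pass as different (adjusted p = 0.563). Induction was 2.38 at day 15 and 0.62 at day 5, with an interaction of 1.76 (adjusted p = 0.00845). Among the 7 fits that left out a sample, it missed the threshold in the one without day 5 sample 1 (adjusted p = 0.0708).

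Ppp1r15a, which directs a phosphatase to the translation factor eIF2α, stood at 10.93, 11.07, 10.52 and 11.17 in restimulated day 15 samples, against 9.57, 10.14 and 10.47 in those of day 5. It was induced by 2.43 at day 15 and changed by 0.67 at day 5 (interaction 1.76, adjusted p = 0.00648), and the interaction passed in each of the 7 fits that left out a sample. Its restimulated level differed by 0.86 (adjusted p = 0.0162), but did not pass without day 5 sample 1 (adjusted p = 0.125). Hspa1a, an inducible chaperone with a near-identical copy that may share its probes, had 12.58, 12.61, 12.47 and 12.52 at day 15 and 10.53, 11.34 and 11.68 at day 5. Its difference between restimulated levels did not pass in any of the 7 fits that left out a sample (adjusted p = 0.136 to 0.338). Its unstimulated values spread widely, at 8.79 ± 1.59 (SD, n = 4) at day 15 and 10.73 ± 0.87 (SD, n = 3) at day 5. The interaction of 3.30 (adjusted p = 0.0372) passed without day 15 sample 1 and missed the threshold without any one of the other 6 samples (adjusted p from 0.0618 to 0.152). Of 11 heat shock genes, 8 rose on restimulation at day 15 and 1 at day 5, with median changes of 0.64 and 0.21. The shares of all genes that rose were 6.49% at day 15 and 3.99% at day 5.

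Feedback genes that act on messenger RNA and kinases were among the gained ones too. Dusp1, a nuclear phosphatase of MAP kinases, was induced by 1.75 at day 15 and changed by -0.09 at day 5 (interaction 1.84, adjusted p = 0.0180), but its interaction did not pass without day 15 sample 2 or day 5 sample 1 or 3 (adjusted p = 0.0927 to 0.139). Its difference between restimulated levels did not pass in any of the 7 fits that left out a sample (adjusted p = 0.137 to 0.337). Zfp36, which marks cytokine messages for decay, was induced by 1.49 at day 15 and changed by 0.08 at day 5, and held its class in 5 of the 7 fits. In unstimulated cells both were lower at day 15, Dusp1 with a difference of -1.21 and Zfp36 with -0.72. A further 12 of the 48 gained genes were small nucleolar RNAs, which guide the modification of ribosomal RNA and mostly lie in introns of other genes. They are 23.5% of the 51 such genes measured, where 0.241% of all genes were gained, and the group was singled out after its values were seen. Snord82 is an example, with 10.33 to 10.66 in restimulated day 15 samples and 9.75 to 10.36 in those of day 5. The restimulated groups overlapped, and the unstimulated level differed by -1.35 (adjusted p = 0.00520). Its interaction missed the threshold in 4 of the 7 fits that left out a sample (adjusted p = 0.0576 to 0.193).

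**Figure D3:**
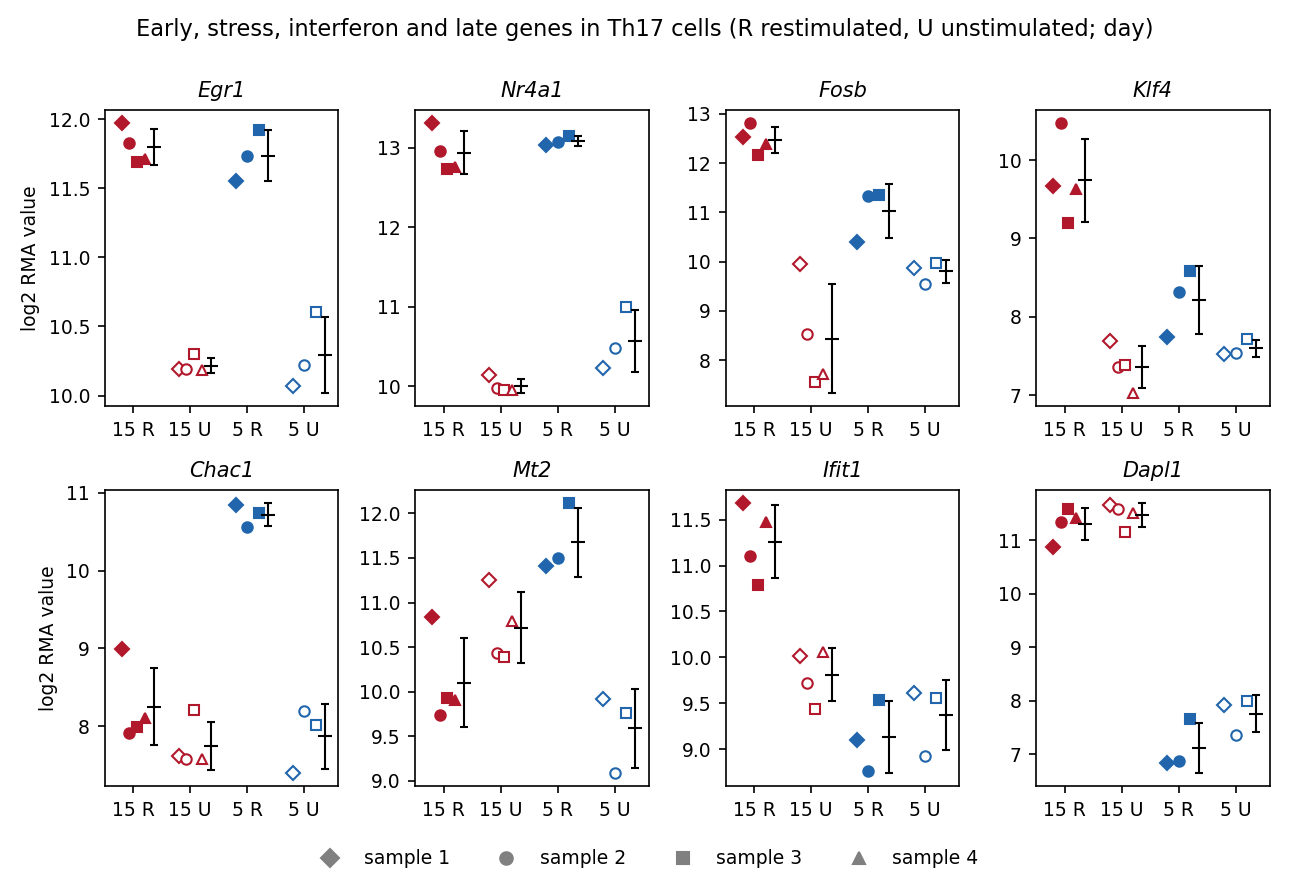
Log2 RMA level of 8 genes in each sample, restimulated (R, filled) and unstimulated (U, open), at day 15 (red) and day 5 (blue); bars give the mean and SD of each group. Restimulated levels of Egr1 and Nr4a1 overlap between the days, Chac1 and Mt2 rise at day 5, Klf4 and Ifit1 reach higher levels at day 15, and Dapl1 is high at day 15 with and without restimulation.

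Interferon-stimulated genes were higher in restimulated cells at day 15. Ifit1, which binds foreign RNA, stood at 11.68, 11.10, 10.79 and 11.48 in restimulated day 15 samples, against 9.10, 8.76 and 9.54 in those of day 5. The groups lay more than 1 log2 unit apart, a 4.38-fold difference (adjusted p = 6.64e-07). Restimulation raised it by 1.45 at day 15 and changed it by -0.24 at day 5, with an interaction of 1.69 (adjusted p = 0.00421) that passed in each of the 7 fits that left out a sample. Mx2, an antiviral GTPase, was gained as well (1.02 at day 15 and -0.35 at day 5).

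Of 15 interferon-stimulated genes 9 were higher at day 15 and 1, Gbp3 (-1.03), lower, with a median of 0.60. Over all genes 5.05% were higher and 8.42% lower. The largest differences after Ifit1 were Ifit3 (1.88), Rsad2 (1.49) and Mx1 and Ifit2 (both 1.10). On restimulation the list had a median change of 0.09 at day 15, where 1 gene rose, against 6.49% of all genes. At day 5 its median change was -0.42 and 6 of the 15 fell, against 4.08% of all genes. Ifit3 changed by 0.36 at day 15 (adjusted p = 0.282) and by -0.97 at day 5 (adjusted p = 0.0230). A probe set of Ifna4, a type I interferon gene with many near-identical copies, stood at 8.08, 6.04, 6.78 and 6.73 in restimulated day 15 samples, against 5.02, 4.97 and 5.20 in those of day 5. Its interaction of 1.75 (adjusted p = 0.0414) missed the threshold with the sample number as a block (adjusted p = 0.0531) and also missed the threshold without any one of 5 samples (day 15 samples 3 and 4 and all of day 5, adjusted p = 0.0556 to 0.160).

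**Figure D4:**
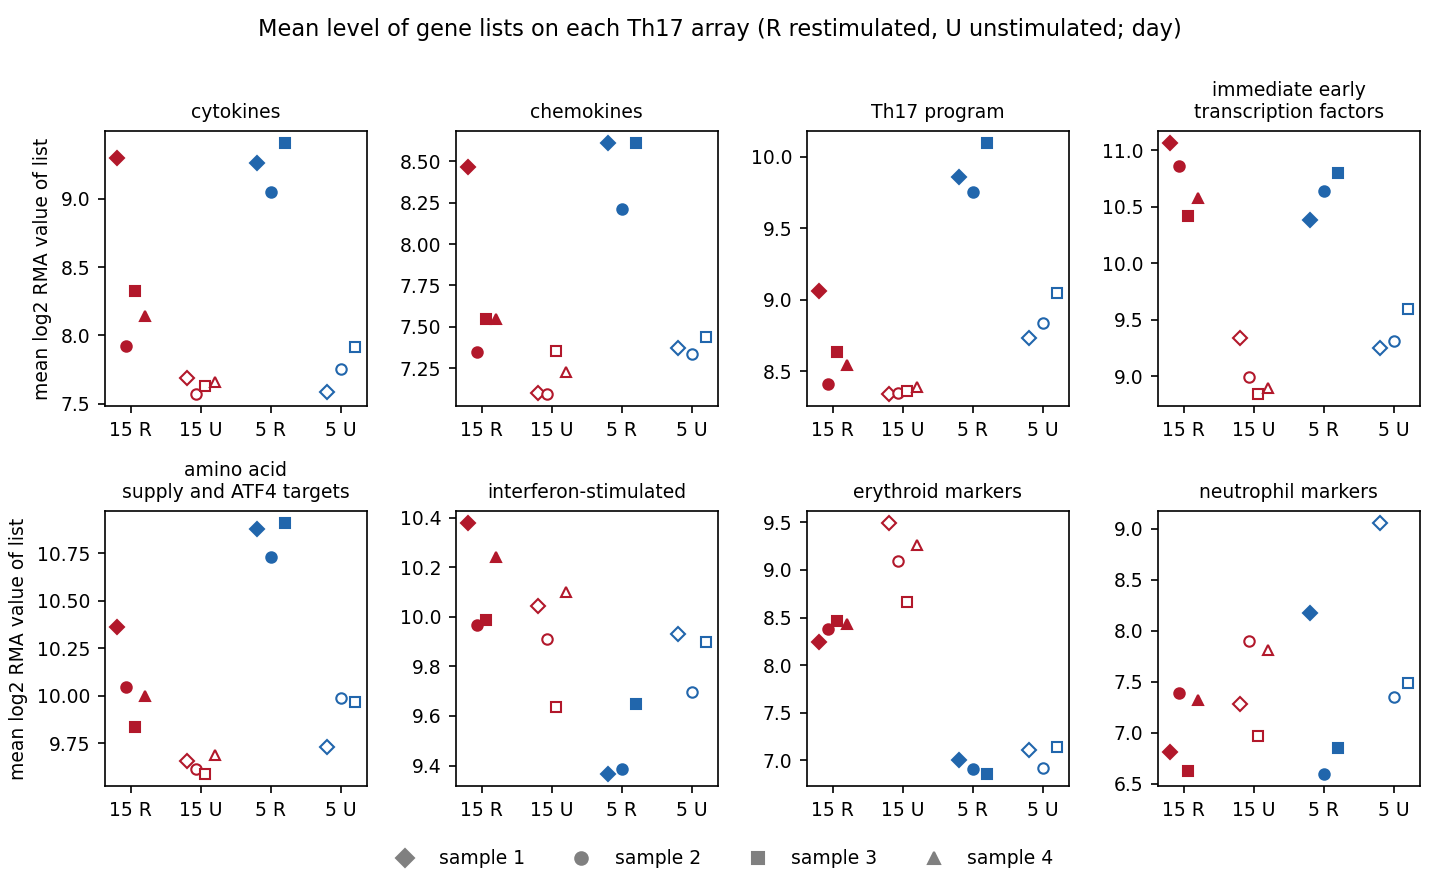
Mean log2 RMA level of 8 gene lists in each sample, restimulated (R, filled) and unstimulated (U, open), at day 15 (red) and day 5 (blue). After restimulation, cytokine and chemokine means are low in day 15 samples 2 to 4 and high in sample 1 (diamond). Th17 program and ATF4 target means are lower in all 4 restimulated day 15 samples, and erythroid marker means are higher at day 15.

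Of 17 genes of the TNF family and costimulation 4 were lower and 1 higher in restimulated cells at day 15, with a median of -0.48, where 8.42% of all genes were lower and 5.05% higher, and without sample 1 there were 9 lower and 1 higher. Tnfrsf9, the gene of 4-1BB, was -1.64 and Icos -0.70. The higher one was Tnfsf10 (0.55), the gene of TRAIL. Cd69, an early activation antigen, was induced at both days (1.84 at day 15 and 1.20 at day 5) and the difference in level did not pass (-0.22, adjusted p = 0.431). Of 12 inhibitory receptor genes 7 passed, all lower at day 15, with a median of -0.85. In unstimulated cells 7 of the 12 were lower at day 15 too, with a median of -0.79, where 5.28% of all genes were lower. No interaction in the list passed.

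Among the inhibitory receptors, Tigit stood at 10.94, 10.53, 10.75 and 10.54 in restimulated day 15 samples, against 12.20, 12.06 and 12.11 in those of day 5 (-1.43, adjusted p = 1.51e-07). Its change on restimulation did not pass at either day, at 0.08 at day 15 and -0.05 at day 5. Pdcd1, the gene of PD-1, was -1.01 (adjusted p = 0.00206) and rose on restimulation by 0.66 at day 15 and by 1.03 at day 5, although its change at day 15 was 0.39 without sample 1 and did not pass (adjusted p = 0.143). Ctla4 was -0.89 (adjusted p = 0.000153) and rose by 1.20 at day 15 and by 0.53 at day 5, with an interaction of 0.67 that did not pass (adjusted p = 0.0934).

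Lists of growth genes differed in how many members were lower in the restimulated cells of day 15. Of 21 DNA replication genes 16 were lower (median -0.40), of 19 mitosis genes 11 (median -0.39), and of 13 glycolysis genes 7 (median -0.36), and no other member of the 3 lists passed. Over all genes 8.42% were lower in this comparison. Of 21 genes of ribosome biogenesis and nucleotide synthesis 5 were lower (median -0.10), and the 13 cholesterol synthesis genes had a median of -0.04. In unstimulated cells 18 of the 19 mitosis genes were lower at day 15 (median -0.59), as were 10 of the DNA replication genes (median -0.35) and 4 of the glycolysis genes (median -0.26). The share of all genes lower in unstimulated cells was 5.28%. Examples are Rfc4 (-0.65), a clamp loader subunit, Bub1 (-0.60), a spindle checkpoint kinase, and Slc16a3 (-0.61), which exports lactate. The mitosis count ranged from 2, without day 5 sample 2, to 15, without day 15 sample 4, and was 6 after quantile normalisation. Myc, the factor that drives growth after activation, stood at 11.87, 10.75, 10.66 and 10.70 in restimulated day 15 samples, against 11.55, 11.89 and 12.19 in those of day 5. It changed by 0.05 at day 15 and by 1.06 at day 5, and its interaction of -1.01 did not pass (adjusted p = 0.195), or passed at -1.23 without sample 1 (adjusted p = 0.0480). The difference in level of -0.88 (adjusted p = 0.0253) did not pass without any one of 5 samples (day 15 samples 2, 3 and 4 and day 5 samples 2 and 3, adjusted p from 0.0639 to 0.149).

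Several of the largest differences between the restimulated groups were also found without restimulation. Dapl1 (probe set 10472235), a gene whose product resembles the death-associated protein DAP and that marks naive and memory T cells, stood at 10.88, 11.34, 11.60 and 11.42 in restimulated day 15 samples, against 6.83, 6.86 and 7.66 in those of day 5. It was 18.3-fold higher at day 15 (adjusted p = 1.40e-11), and unstimulated cells differed by 3.72. Klrk1, the gene of the activating receptor NKG2D, stood at 8.16, 8.44, 8.22 and 8.14 in restimulated day 15 samples, against 5.99, 5.84 and 5.94 in those of day 5 (2.32, adjusted p = 1.76e-10), and unstimulated cells differed by 1.59.

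Of 18 genes of cytotoxic and terminally differentiated effector cells, 5 were higher and 5 lower at day 15. Over all genes 5.05% were higher and 8.42% lower. Klrk1, Klrg1 (1.49), a receptor of terminally differentiated cells, S1pr5 (1.45), which guides tissue exit, Cx3cr1 (0.82) and Klrd1 (0.66) were the higher ones. Gzmk (-1.64) and Gzmb (-1.53), both granzyme genes, Prf1 (-0.77), the gene of perforin, Prdm1 (-0.71) and Gzma (-0.57) were the lower ones. Gzmb stood at 10.34, 10.36, 10.58 and 10.70 in restimulated day 15 samples, against 11.41, 12.38 and 12.30 in those of day 5. In unstimulated cells it differed by -1.74, and restimulation changed it by -0.14 at day 15 and -0.34 at day 5.

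Markers of other blood cells also differed between the groups. Of 6 erythroid markers 5 were higher in restimulated cells at day 15, where 5.05% of all genes were higher. The mean level of the 6 ran from 8.24 to 8.47 in the 4 day 15 samples, against 6.86 to 7.00 in the 3 day 5 samples. Car2, a carbonic anhydrase of red cells, was 12.2-fold higher (adjusted p = 5.27e-09), and Car1, its relative and the largest difference among all named genes, 20.1-fold (adjusted p = 7.98e-13). Both fell on restimulation at day 15, by 1.47 and 1.87, and the erythroid mean of unstimulated cells was 8.66 to 9.49 at day 15 and 6.92 to 7.14 at day 5. Several genes with a lower change on restimulation at day 15 that were not inducible moved with them, such as Pklr (-1.71), red cell pyruvate kinase, and Aqp1 (-1.66), a water channel of red cells. Because the erythroid mean separates the days with no overlap, it cannot be told apart from the day.

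Of 14 neutrophil markers 4 were higher at day 15, Mpo (2.54), Mmp9 (1.497), Elane (1.07) and Prtn3 (0.66), and 1 lower, Ly6g (-1.47), although the median of the list was -0.41. The shares of all genes were 5.05% higher and 8.42% lower. The mean of the list ran from 6.62 to 7.39 in the day 15 samples, against 8.17, 6.60 and 6.85 in those of day 5, with day 5 sample 1 high. Mean levels were 6.62 to 6.98 at day 15 and 6.65 to 6.97 at day 5 for the monocyte and macrophage list, and 6.09 to 6.31 at day 15 and 6.19 to 6.32 at day 5 for the B cell list. Dendritic cell and MHC class II means overlapped too, at 7.22 to 7.59 and 7.36 to 7.56. Means of other lists did not overlap. They were 7.35 to 7.54 at day 15 and 7.15 to 7.17 at day 5 for platelet and megakaryocyte markers (1 of 6 genes higher). NK cell markers had 6.02 to 6.23 and 6.39 to 6.70 (1 of 6 lower). The 2 CD8 genes had 7.15 to 7.33 and 7.35 to 7.53 (neither passed). The part of these markers in the results was not tested.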

How the data were processed

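RNA of each sample part was labelled with the Ambion WT kit and hybridised to Affymetrix mouse arrays. The deposited values are log2 levels that the authors made with RMA in Affymetrix Expression Console, per the submitters' processing notes, with versions not given in the sources used here. No further normalisation was applied. Of 35556 probe sets, 21789 carried 1 symbol, and the set with the highest mean stood for each of 19938 genes (999 had several). limma 3.58.1 in R 4.3.3 (lmFit, eBayes) fitted 8 groups over 24 arrays taken after transfer, with 16 residual degrees of freedom and Benjamini-Hochberg adjustment. The number of arrays limits the precision.

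Members and lists (472 of 520 entries in 32 lists matched) were chosen with earlier results of these data known. Named genes are a panel (43 of 46 matched), up to 10 called genes each way with the largest difference and interaction whose restimulated groups do not overlap, up to 4 called genes of each list, and up to 10 genes of each class. Clone-type names were left out, and other genes were named after their values were seen. Same-numbered restimulated and unstimulated samples deviated together at day 5 (correlations 0.42, 0.39 and 0.47 over 9997 genes, pairing taken from these values). At day 15 the correlations were -0.00, 0.21, -0.13 and -0.16, which show no pairing by number. The main fit used no pairing at either day. In simulated data with 100 genes changed at each size among 19938, 99.0% of log2 differences of 1 and 88.0% of interactions of 1 were recovered, with 18 and 9 unchanged genes called. All simulated interactions of 2 were recovered (100%), whereas those of Csf2 and Ccl4, near that size, did not pass. The simulated rates therefore do not apply to genes with such a spread between samples. Alternatives were array weights, an intensity trend in eBayes, quantile normalisation, a replicate block, marker covariates, fewer arrays or genes, other probe set rules, a 1.5-fold limit and leaving out samples. Leaving out the restimulated array of day 15 sample 1 alone was chosen after seeing the data.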

Additional observations from a re-analysis of the deposited data

Results flagged for a closer look

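Among 296 gene and group pairs of day 15 (4 samples each), 25 had 1 sample far from the other 3, where chance alone marks about 1 in 20. Many of these were restimulated sample 1, which was higher than the other 3. It stood at 13.23 for Ifng (others 11.95 to 12.13), 8.27 for Xcl1 (7.10 to 7.20), 12.10 for Cd40lg (10.96 to 11.06), 12.56 for Il2ra (11.57 to 11.60) and 11.87 for Myc (10.66 to 10.75). It also stood at 11.56 for Rgs16 (9.36 to 9.56), 9.61 for Bcat1 (7.72 to 7.996), 10.30 for Tnfrsf9 (8.71 to 8.95), 12.23 for Tnfrsf4 (11.31 to 11.43) and 12.29 for Icos (11.74 to 11.78). The last 3 were Relb at 10.06 (9.55 to 9.57), Spry1 at 10.20 (7.91 to 8.14) and Asns at 10.64 (9.57 to 9.66). Restimulated sample 3 was low for Nfkbia at 11.77, and restimulated sample 2 was low for Lag3 at 8.38.

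In unstimulated day 15 cells, sample 3 was high for Il17a at 6.75, Egr1 at 10.30 and Chac1 at 8.20, and low for Ppat at 9.09, Asns at 9.87 and Tnfaip3 at 9.67. Unstimulated sample 1 was high for Dusp5 at 10.61 and Nfil3 at 7.60 and low for Ccl20 at 6.27. Unstimulated sample 4 was low for Iltifb at 4.00.

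The change on restimulation differed between the days, by the limma interaction, for 31 named genes. Genes were named partly because their interaction passed, so this count follows from the choice of genes. Over all genes 1.17% passed. Its value, day 15 minus day 5, was negative for Mt2 (-2.70), Il17a (-2.36), Chac1 (-2.34), Il17f (-2.05), Kit (-1.95), Tlcd4 (-1.93), Pklr (-1.71), Gja1 (-1.69), Aqp1 (-1.66) and Ces2g (-1.59). It was also negative for Asns (-1.40), Ccl20 (-1.35), Cldn12 (-1.34), Phlda3 (-1.23), Iltifb (-1.23) and Dab2 (-1.22). It was positive for Hspa1a (3.30), Fosb (2.81), Fos (2.37), Vaultrc5 (1.98), Snord58b (1.895), Dusp1 (1.84), Snord82 (1.83), Ppp1r15a (1.76), Klf4 (1.76), Snord61 (1.75), Ifna4 (1.75) and Ifit1 (1.69). Smaller positive values were found for Sik1 (1.01), Tnfaip3 (0.86) and Ifrd1 (0.84). Some interactions given only here missed the threshold in fits that left out a sample. Their highest adjusted p was 0.152 for Snord58b, 0.145 for Phlda3, 0.114 for Vaultrc5, 0.102 for Ces2g, 0.0829 for Snord61 and 0.0665 for Tlcd4.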

How the results depend on the processing

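Of 142 called results for named genes, 43 passed under every alternative run and 8 turned direction under at least 1. Leaving out each sample in turn, or the restimulated array of day 15 sample 1 alone, gave 1570 to 2867 genes called between restimulated groups (1570 without day 5 sample 3, with 796 higher and 774 lower), 86 to 436 interactions, 186 to 250 genes induced at day 15, 95 to 168 at day 5, 52 to 82 kept, 8 to 39 lost and 17 to 67 gained. Array weights gave 622 interactions, 26 lost and 86 gained genes. A limit of 1.5-fold gave 537 induced at day 15, 379 at day 5 and 187 kept. Quantile normalisation gave 1591 higher and 1393 lower genes (53.3% higher, against 37.5%). The replicate block gave 2618 genes between restimulated groups, 272 interactions, 16 lost and 58 gained. For inductions and interactions the block joined restimulated and unstimulated arrays of the same type, day and number. For differences between restimulated groups the block was the replicate number, and the values showed no pairing across days by it. This block took the adjusted p of Egr2 to 0.0800, Myc to 0.0554, Relb to 0.0554, Fosb to 0.0525 and Ppp1r15a to 0.0501. The cause of these changes was not tested.

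When the mean of the erythroid markers entered the fit there were 2869 interactions and 124 gained genes. That mean separates the days, so the fit cannot tell them apart. In it the difference between restimulated groups turned for Fos (-0.73), Junb (-0.91), Nfkbid (-0.42), Rhag (-0.37), Hspa1a (-1.69), Fosb (-0.76), Dusp1 (-0.51), Ppp1r15a (-0.14), Snord61 (-1.69), Tlcd4 (-1.67), Pklr (-0.63), Aqp1 (-0.10), Ces2g (-0.36), Tnfsf10 (-0.25), Epb42 (-0.49), Tnfaip3 (-0.26), Ifrd1 (-0.0391), Snord58b (-1.68), Snord82 (-1.04) and Cxcl10 (-0.15), and the interaction turned for Ifng (0.25), Il4 (0.18) and Cd40lg (0.0002). With the neutrophil mean the interactions of Ifng (0.0742) and Klrg1 (0.0159) turned.

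Other turns were of values that did not pass. Differences turned for Dusp2 (0.0419) and Fosl2 (0.0595) after quantile normalisation and for Fosl2 (0.0224) with the replicate block. The ranges that follow are over the fits that left out a sample, or the restimulated array of day 15 sample 1 alone. Differences ran from -0.0279 to 0.157 for Egr1, -0.105 to 0.192 for Nfkbid, -0.186 to 0.0142 for Dusp2, -0.222 to 0.169 for Fosl2 and -0.188 to 0.0138 for Kdm6b. Interactions ran from -0.3606 to 0.350 for Ifng, -0.3165 to 0.274 for Irf4 and -0.195 to 0.0888 for Klrg1.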
